A study of Mus musculus with 6 samples.

Results

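The genes of oxidative phosphorylation were compared between sorted bone marrow cells of mice with and without the microRNA miR-155. They were chosen by symbol: all rows starting with mt-, and the nuclear rows starting with Nduf (a, b, c, s or v), Uqcr, Cox4 to Cox8 and Atp5, with Sdha to Sdhd. This gave 118 of 22475 genes in the table. Of these, 27 are mitochondrially encoded (8 mRNA genes, 1 ribosomal RNA gene and 18 tRNA genes) and 91 are nuclear. The nuclear genes comprised 81 subunit genes (36 of complex I, 4 of complex II, 8 of complex III, 18 of complex IV with Ndufa4 and Ndufa4l2, and 15 of complex V) and 10 genes for assembly factors and other proteins (Ndufaf1 to Ndufaf7, Cox7a2l, Atp5s and Atp5sl). mt-Co2, mt-Co3, mt-Atp6, mt-Atp8, mt-Nd4l and mt-Rnr2 were not analysed here.

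RNA came from lineage-negative, cKit-positive, Sca1-positive bone marrow cells, a gate rich in haematopoietic stem and progenitor cells. FLT3-ITD, a duplication inside the FLT3 gene that leaves this growth factor receptor signalling without its ligand, was homozygous in every mouse, so the controls carried it as well. The control group (FLT3-ITD) had wild type miR-155, and the other group (FLT3-ITD miR-155-/-, below KO) lacked it. There were 3 libraries per group, each made from pooled RNA of 3 mice, and the p-values below therefore measure spread between pools. Strain, age and sex are not given in the sources used here, and no group without FLT3-ITD was analysed here.

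Oxidative phosphorylation makes ATP in the inner mitochondrial membrane. Complexes I and II pass electrons from NADH and succinate to coenzyme Q, complexes III and IV pass them on to oxygen, and complex V (ATP synthase) makes ATP with the proton gradient that complexes I, III and IV build. Complexes I, III, IV and V are each built from subunits of both genomes, whereas all subunits of complex II are nuclear. Quiescent haematopoietic stem cells are known for relying largely on glycolysis and for turning up mitochondrial respiration as they divide and differentiate.

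The libraries held 6843129 to 9443615 counts. The row that holds the miR-155 host transcript (Gm26667) had 33, 48 and 36 counts in the controls and 4, 14 and 4 in the KO libraries. All 10 markers listed for the stem and progenitor gate were detected, with summed levels of 1812 to 2586 CPM (counts relative to the TMM-scaled library size). Markers of other cells were present as well: the summed plasma and B cell markers reached 8120 to 15236 CPM in the controls and 3290 to 8826 CPM in the KO libraries, and the 10 neutrophil markers 859 to 1022 and 510 to 799 CPM. Of the plasma and B cell sum of 12175 CPM in control library 1, Ighm gave 7773 and Igj 3881 CPM, so this sum mostly follows that pair. None of the listed markers was at 0 in every library, and the part of these cells in the results below was not tested. The tissue was measured in bulk, so fewer cells of a type and less RNA per cell cannot be told apart.

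Several of these genes have near-identical copies elsewhere in the genome, which limits what their counts mean. A pair of alignments is printed to show how close such copies are. The mitochondrial gene mt-Nd3, which encodes a core membrane subunit of complex I, has a copy on chromosome 1, Gm28438. Over 345 aligned bases they differ at 1 position, T3C, counted from the first coding base of mt-Nd3 and shown in capitals in their first 120 bases.
mt-Nd3: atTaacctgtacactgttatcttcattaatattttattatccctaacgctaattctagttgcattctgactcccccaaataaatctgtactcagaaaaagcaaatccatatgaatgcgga
Gm28438: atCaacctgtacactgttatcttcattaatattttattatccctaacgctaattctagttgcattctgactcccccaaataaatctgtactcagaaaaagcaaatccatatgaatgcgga
Exact 50-base windows of mt-Nd3 were found in this copy for 98.0% of the gene. Ndufs5, an accessory subunit of complex I with the largest fitted difference among the genes tested here, lies on chromosome 4 (chr4:123712710-123718202, minus strand) and has a copy on chromosome 16, BC002163 (chr16:42955631-42955949). The 319 aligned bases hold 2 differences, T81C and A105G, in capitals in positions 6 to 105 of the coding sequence.
Ndufs5: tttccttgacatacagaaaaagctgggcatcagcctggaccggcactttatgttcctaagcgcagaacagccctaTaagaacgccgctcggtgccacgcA
BC002163: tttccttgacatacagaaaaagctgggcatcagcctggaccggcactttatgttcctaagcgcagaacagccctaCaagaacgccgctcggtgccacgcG
Of the 50-base windows of Ndufs5, 72.1% occur unchanged in the copy. A read that lies within such a window cannot be placed by its sequence.

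Nuclear respiratory genes are known targets of the transcription factors NRF1, GABP and YY1, and exact matches to short forms of their motifs were counted on both strands, overlaps allowed, of RefSeq promoters (GRCm38.p6, from 250 bases before to 50 after the start site). Of the 91 nuclear genes, 72 matched a promoter, with 77 promoters in all. The NRF1 core GCGCATG was present in 15 of 77 (19.5%), against 3.91% of all 32851 promoters. The GABP core CCGGAAG was present in 17 (22.1%, against 8.86%), and the YY1 core AAGATGG in 10 (12.99%, against 6.34%). Most YY1 matches lay in the transcribed part, such as those of Ndufc1 and Ndufb8, which began 22 and 38 bases past the start site. The set of all promoters was not matched to these genes in base composition. NRF1 matches upstream of 4 genes, for a subunit of ATP synthase, a pair of cytochrome c oxidase subunits and a complex I subunit, are shown as examples. Other tested genes, such as Ndufb6 and Sdhb, had upstream matches as well. The motif is in capitals, on each gene's own strand.
Atp5k, chr5:108434431-108434460, minus strand: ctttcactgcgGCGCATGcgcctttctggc
Cox6a1, chr5:115349102-115349131, minus strand: acaggaacgggGCGCATGcgcgctctcgct
Cox5b, chr1:36691425-36691454, plus strand: gaggcagaactGCGCATGtgcggcgtctac
Ndufa11, chr17:56717691-56717720, plus strand: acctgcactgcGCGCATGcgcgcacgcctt
These are descriptions of sequence, and no binding was measured.

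The question asked of the data was whether loss of miR-155 changes the RNA of these genes in FLT3-ITD cells. No gene of oxidative phosphorylation passed the test. Of the 118 genes, 96 had enough counts to be tested: 74 of 81 nuclear subunit genes, all 10 assembly and other genes, 7 of 8 mitochondrial mRNA genes, mt-Rnr1 and 4 of 18 tRNA genes. None of them had an adjusted p under 0.05 in edgeR's quasi-likelihood test, where 0.159% of the 13217 genes tested were called (21 genes: 0.0151% of those tested higher in KO and 0.144% lower). The smallest adjusted p was 0.9996. At an unadjusted p under 0.05 there were 3 (3.13%), Ndufs5, Cox8a and Atp5g1, against 3.9% of all genes. DESeq2 called none of them, against 0.845% of its 15498 genes, and the authors' deposited table gave an adjusted p of 0.9999 for each of the 105 that had one, against 0.639% of its genes called. With the replicate numbers as a block, edgeR called 1.36% of all genes (180; 0.318% higher and 1.04% lower) and again none of these; 4 had an unadjusted p under 0.05 (4.17%, against 9.35%), and the smallest adjusted p was 0.444.

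The intervals show how large a difference these libraries could have missed. The 95% confidence interval of the fold change lay within 1.5-fold in either direction for 82 of the 96 genes (85.4%), against 61.1% of all genes tested. For the better counted genes (mean log2 CPM 5 or more), the interval lay within that range for 67 of 68 (98.5%), against 87.0% of all such genes. The median log2 fold change, KO over control, was 0.02 for the nuclear subunit genes (43 positive and 31 negative) and 0.001 for all genes. By complex the medians were -0.006 for complex I, 0.01 for complex II, 0.04 for complex III, 0.02 for complex IV and 0.03 for complex V. The assembly and other genes had a median of 0.03, and the mitochondrial mRNA genes -0.07.

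**Figure D1:**
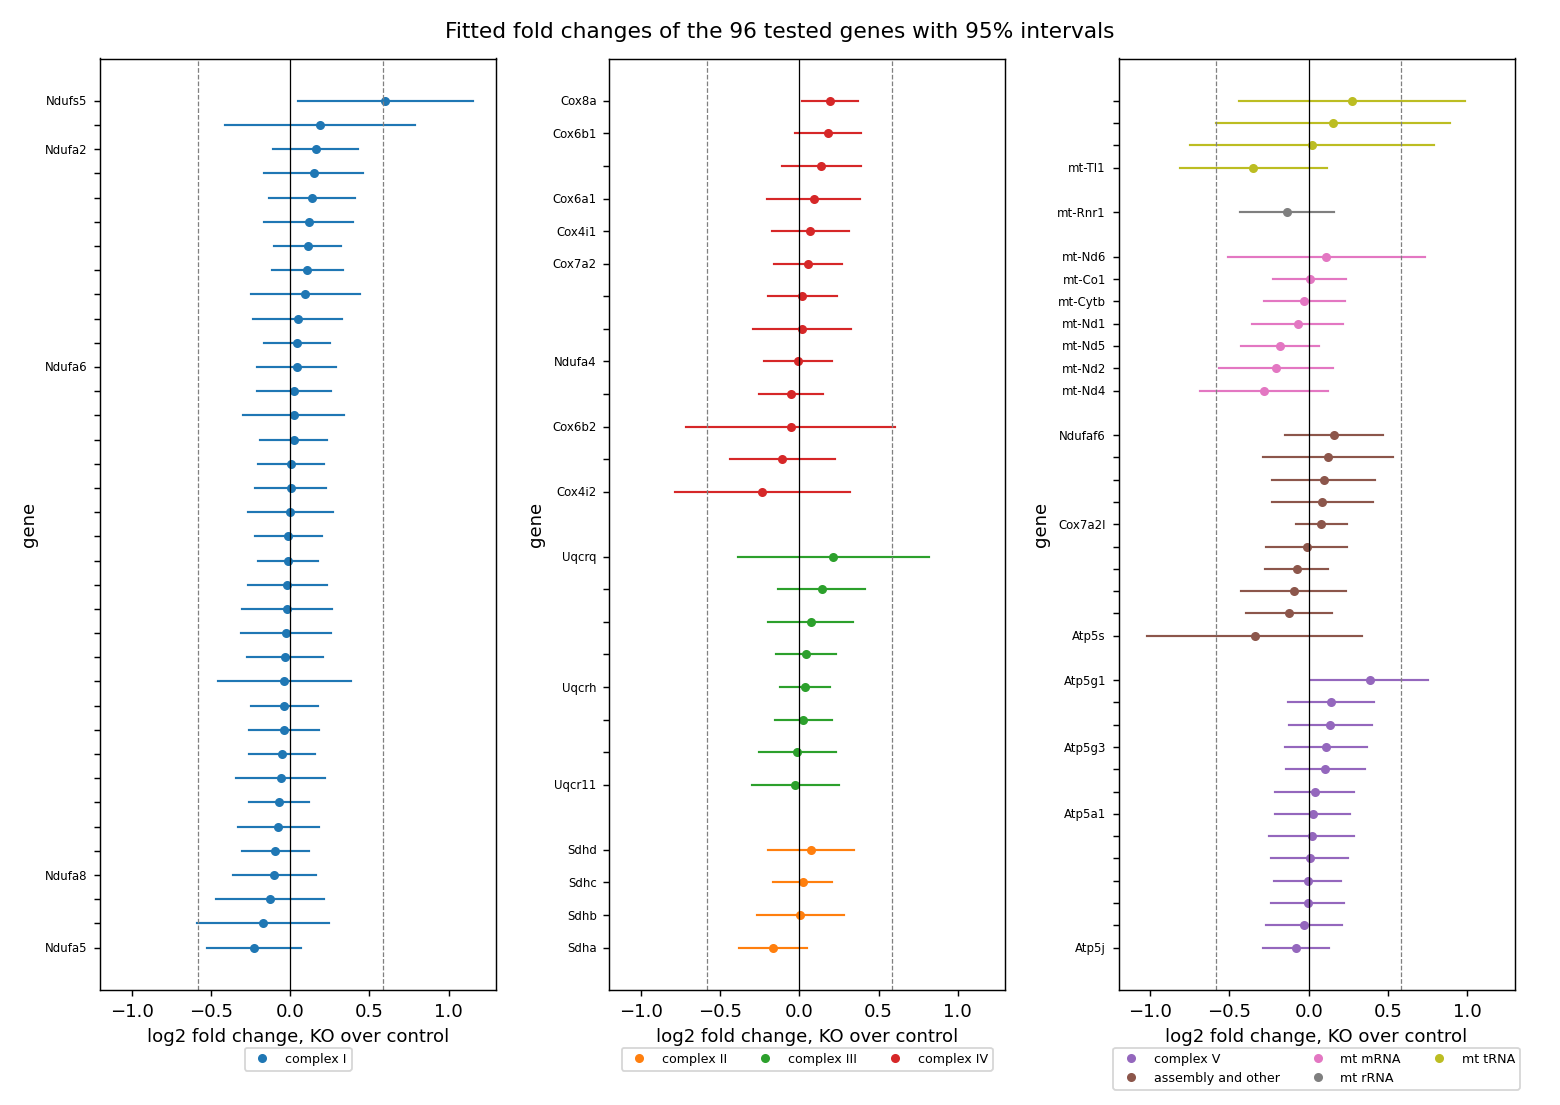
Fitted log2 fold change (KO over control, x axis) of each of the 96 tested genes (y axis, with names for a part of them) by class. Lines are 95% confidence intervals derived from edgeR's quasi-likelihood F test, and the dashed lines mark 1.5-fold. The points cluster around 0 in every class, and the intervals of Atp5s, mt-Nd6 and the tRNA genes are among the widest.

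Complex I, the NADH dehydrogenase, had 36 nuclear genes tested, with fold changes from -0.23 (Ndufa5) to 0.60 (Ndufs5) on the log2 scale. Ndufs5 stood at 2.82, 2.64 and 2.80 CPM in control libraries 1, 2 and 3 and at 3.82, 4.86 and 3.85 CPM in KO libraries 1, 2 and 3. All 3 KO libraries were above all controls, on 23 to 38 counts each. The log2 fold change was 0.60 ± 0.24 (SE; 95% interval 0.05 to 1.15), with an unadjusted p of 0.0361 in edgeR and an adjusted p of 0.9996. The copy BC002163 had 5, 6 and 7 counts in the controls and 1, 5 and 1 in KO, so it was not higher in KO; the part of read placement between the pair was not tested. Ndufa5, an accessory subunit, was at 27.4, 24.98 and 21.9 CPM in the controls and 22.5, 20.6 and 20.4 CPM in KO. Those groups overlapped, and the log2 fold change was -0.23 ± 0.13 (SE). Ndufa8 was the single gene of the 96 with every KO library below every control (1.04%, against 4.79% of all genes), and by a small margin: 32.2, 31.9 and 31.9 CPM against 31.7, 31.8 and 26.0 CPM. Its lowest value came from KO library 3.

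Complex II, succinate dehydrogenase, links the tricarboxylic acid cycle to the chain. Sdha, its flavoprotein, was at 266, 250 and 261 CPM in the controls and 218, 216 and 258 CPM in KO. KO libraries 1 and 2 were below all controls and KO library 3 lay among them, with a log2 fold change of -0.17 ± 0.09 (SE; unadjusted p 0.105 in edgeR). The iron-sulfur subunit Sdhb and the membrane anchors Sdhc and Sdhd had log2 fold changes of 0.006, 0.02 and 0.07. In complex III, the cytochrome bc1 complex, the 8 tested genes ranged from -0.03 (Uqcr11) to 0.21 (Uqcrq). Uqcrq, a small subunit, varied most between libraries, at 21.8, 34.5 and 20.4 CPM in the controls and 34.7, 33.0 and 21.3 CPM in KO. The SD of Uqcrq was 7.78 CPM in the controls and 7.29 CPM in KO, larger than the distance between the means of 25.5 and 29.7 CPM. The hinge protein Uqcrh varied least, with 129 ± 1.75 CPM in the controls and 132 ± 3.11 CPM in KO (SD, n = 3).

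Complex IV, cytochrome c oxidase, held a pair of the genes whose groups did not overlap. Across all 96 genes, 6 had every KO library above every control (6.25%, against 3.43% of all genes): Ndufs5, Cox8a, Atp5g1, Cox6b1, Ndufaf6 and Cox7a2l. Cox8a, the ubiquitous form of subunit VIII, was at 68.0, 71.2 and 66.3 CPM in the controls and 78.6, 77.1 and 79.1 CPM in KO. The libraries of each group lay close together, and the log2 fold change was 0.19 ± 0.08 (SE; 95% interval 0.01 to 0.37; edgeR unadjusted p 0.0386, adjusted p 0.9996). Cox6b1, the ubiquitous subunit VIb, was at 124, 111 and 104 CPM in the controls and 135, 125 and 125 CPM in KO. Its highest control nearly touched the lowest KO library, and the fitted difference was 0.18 ± 0.09 on the log2 scale (SE; edgeR unadjusted p 0.0805, and 0.0261 with the block). Cox7a2l, which helps to join complexes III and IV into supercomplexes, differed by 0.08 on the log2 scale, with 112, 120 and 112 CPM against 121, 121 and 122 CPM.

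**Figure D2:**
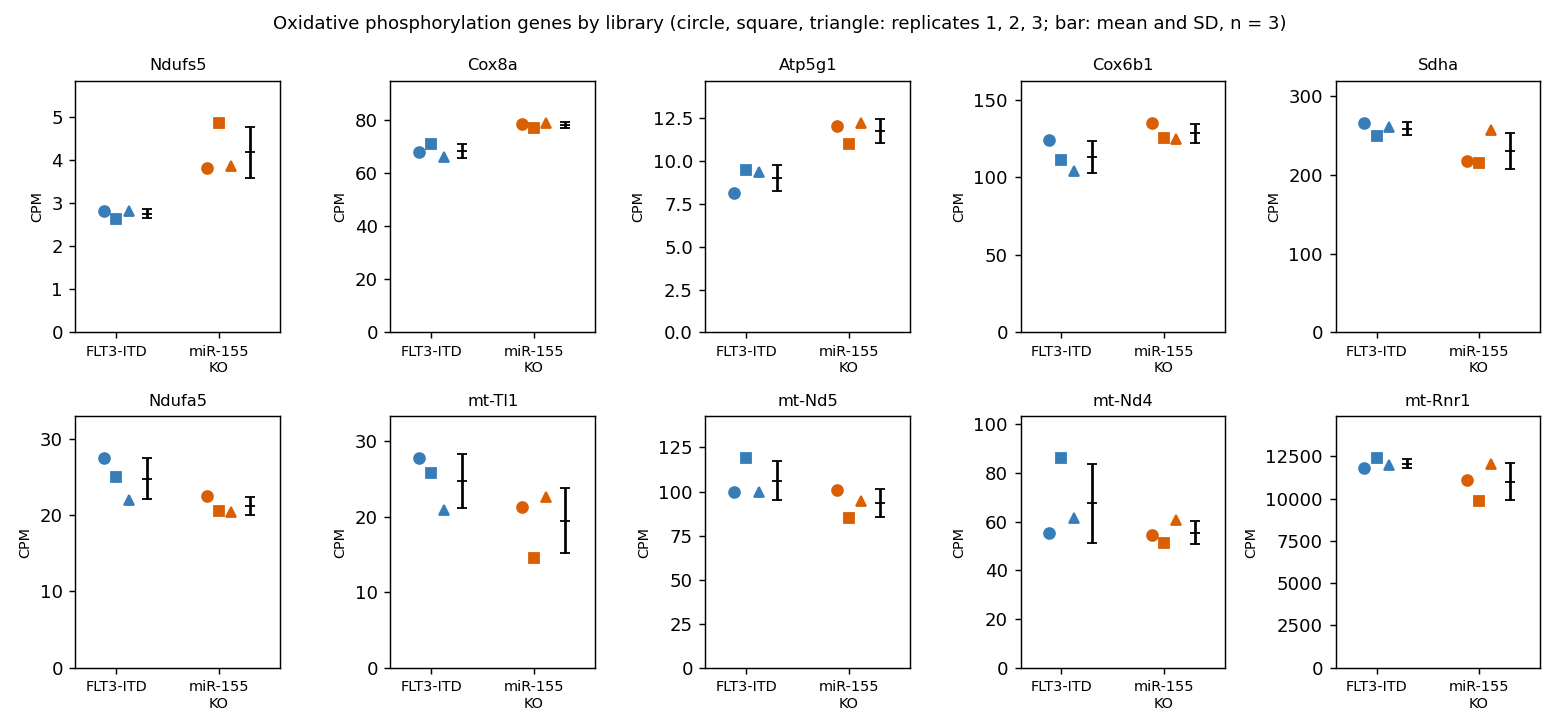
CPM (y axis, from 0) of 10 genes in the 3 control (blue) and 3 KO (orange) libraries, with symbols for the replicate number and black bars for mean and SD. The groups of Ndufs5, Cox8a, Atp5g1 and Cox6b1 do not overlap, whereas those of Sdha, Ndufa5 and the mitochondrial genes do.

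Several subunits of complex IV have tissue-specific forms, and in both groups nearly all their RNA came from the ubiquitous forms. Shares are given per family as percent of FPKM (fragments scaled to gene length and library size, as deposited by the authors). Cox4i1 made up 95.2 ± 0.61% of the COX4 pair in the controls and 96.1 ± 0.85% in KO (SD, n = 3), and the hypoxia-associated Cox4i2 the rest. Over the libraries, Cox6a1 made up 98.98 to 99.5% of its pair, Cox7a2 98.1 to 99.4%, Cox8a 99.8 to 100% of its 3 forms, and Ndufa4 99.9 to 100% against Ndufa4l2. The testis-associated Cox6b2 held 3.55 ± 0.70% in the controls and 3.02 ± 1.09% in KO. Muscle-type Cox6a2 had 7, 6 and 6 counts in the controls and 3, 3 and 3 in KO, too few to be tested, and its counts did not overlap. Muscle-type Cox7a1, at 3, 4 and 2 against 6, 3 and 5 counts, lay on the other side and overlapped.

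Complex V had 13 of 15 genes tested, from -0.08 (Atp5j) to 0.39 (Atp5g1). Atp5g1 encodes subunit c of the rotor ring, as do Atp5g2 and Atp5g3. It was at 8.13, 9.51 and 9.39 CPM in the controls and 12.1, 11.0 and 12.2 CPM in KO, with every KO library above every control. The log2 fold change was 0.39 ± 0.16 (SE; 95% interval 0.01 to 0.76; edgeR unadjusted p 0.0432, adjusted p 0.9996). Exact 50-base windows shared with other genes cover 99.7% of the coding sequence of Atp5g1, and its copy Gm10039 had 15, 13 and 17 counts in the controls and 14, 17 and 13 in KO. Atp5g3 provided most of the counted subunit c RNA, with 94.97 ± 1.92% of the FPKM of the 3 genes in the controls and 94.9 ± 1.12% in KO. Of the coding windows, 100% are shared with other genes for Atp5g2 and 0% for Atp5g3. The length implied by the FPKM of Atp5g1 was 4912 bases, for a coding sequence of 411. The part of read placement and gene length in these shares was not tested. Atp5a1, the alpha subunit of the catalytic head, was at 964 ± 94.0 CPM in the controls and 982 ± 46.8 CPM in KO (SD, n = 3). Atp5b, the beta subunit, was at 1038 ± 91.2 and 1033 ± 45.3 CPM. Fitted log2 differences were 0.03 and -0.006 for this pair.

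The 10 assembly and other genes gave 5 positive and 5 negative fold changes. Ndufaf6, a complex I assembly factor, was at 13.4, 12.4 and 13.3 CPM in the controls and 14.1, 14.4 and 15.1 CPM in KO, a log2 fold change of 0.16 ± 0.13 (SE). Atp5s, which encodes a coupling factor, was at 10.2, 14.1 and 16.6 CPM in the controls and 6.88, 13.7 and 11.6 CPM in KO. Both libraries numbered 1 were the lowest of their group. The log2 fold change was -0.34 ± 0.29 (SE), or -0.36 ± 0.16 with the block (edgeR adjusted p 0.561), and it was -0.10 without KO library 1, -0.17 without control library 3 and -0.56 without KO library 2.

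No difference was detected in the mitochondrially encoded mRNAs analysed here, which leave out mt-Co2, mt-Co3, mt-Atp6, mt-Atp8 and mt-Nd4l. Together the 8 genes analysed took 0.490, 0.548 and 0.479% of all counts in the controls and 0.476, 0.4998 and 0.524% in KO. The groups overlapped. The means were 0.506 ± 0.037% and 0.4998 ± 0.024% (SD, n = 3), a difference of -0.0058 percentage points. Of the 7 tested mRNA genes, 2 had positive and 5 negative fold changes. mt-Co1 and mt-Cytb, for the catalytic subunit of complex IV and the cytochrome b of complex III, differed least, at 0.007 ± 0.10 and -0.03 ± 0.11 on the log2 scale (SE). The complex I genes lay further out. mt-Nd4 was at 55.3, 86.1 and 61.6 CPM in the controls and 54.7, 51.1 and 60.8 CPM in KO, a log2 fold change of -0.28 ± 0.17 (SE). Control library 2 was far above the rest, control library 3 was just above the highest KO library, and control library 1 lay among the KO values. mt-Nd5 was at 99.95, 119 and 99.6 CPM against 101, 85.1 and 94.8 CPM, and mt-Nd2 differed by -0.21 ± 0.15 on the log2 scale (SE). mt-Nd1 and mt-Nd6 differed by -0.07 and 0.11. The median of the 7 genes was -0.19 without KO library 3 and -0.02 without KO library 2, so it depended on single libraries.

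Mitochondrial ribosomal RNA was counted through mt-Rnr1, the small subunit RNA, which took 1.15, 1.26 and 1.21% of all counts in the controls and 1.06, 1.01 and 1.22% in KO. KO libraries 1 and 2 were below every control and KO library 3 was not, with a log2 fold change of -0.14 ± 0.13 (SE; edgeR unadjusted p 0.318). Per count of the 8 mitochondrial mRNA genes analysed there were 2.39 ± 0.12 counts of mt-Rnr1 in the controls and 2.20 ± 0.15 in KO (SD, n = 3). By library the ratio was 2.36, 2.30 and 2.53 in controls 1, 2 and 3 and 2.22, 2.03 and 2.33 in KO libraries 1, 2 and 3, lower in KO at each of the 3 equal numbers, while the groups overlapped. Of the tRNA genes, mt-Tl1, between the ribosomal RNA genes and mt-Nd1, gave most of the counts: 27.8, 25.8 and 20.8 CPM in the controls and 21.3, 14.6 and 22.7 CPM in KO. The groups overlapped, at a log2 fold change of -0.35 ± 0.20 (SE). mt-Ti, mt-Tt and mt-Tw had 10 to 20 counts per library, and the other 14 tRNA genes were not tested, with at most 14 counts in a library.

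Along the mitochondrial genome the levels per length spanned a wide range, although the strands are each transcribed as long precursors. In FPKM, averaged over the 6 libraries, mt-Rnr1 stood at 12072, mt-Co1 at 2343, mt-Nd1 at 587 and mt-Cytb at 518. mt-Nd2 followed at 77.9, mt-Nd5 at 54.7, mt-Nd4 at 44.8, mt-Nd6 at 17.9 and mt-Nd3 at 1.38. mt-Nd1 and mt-Cytb overlapped in range over the libraries (512 to 676 and 450 to 588 FPKM), as did mt-Nd5 and mt-Nd4 (48.0 to 66.2 and 38.0 to 63.5 FPKM). Among the 8 mRNA genes analysed, the lowest, mt-Nd3, had the largest share of windows found elsewhere, 98.0%, and mt-Nd4 came second with 62.2%. That order did not hold for mt-Co1, which shared 51.1% of its windows and was the highest mRNA, nor for mt-Nd6, which shared none and was next to lowest. mt-Co1 alone made up 70.2 to 74.1% of the counts of the 8 mRNA genes analysed in each library, so sums over these genes mostly follow it.

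**Figure D3:**
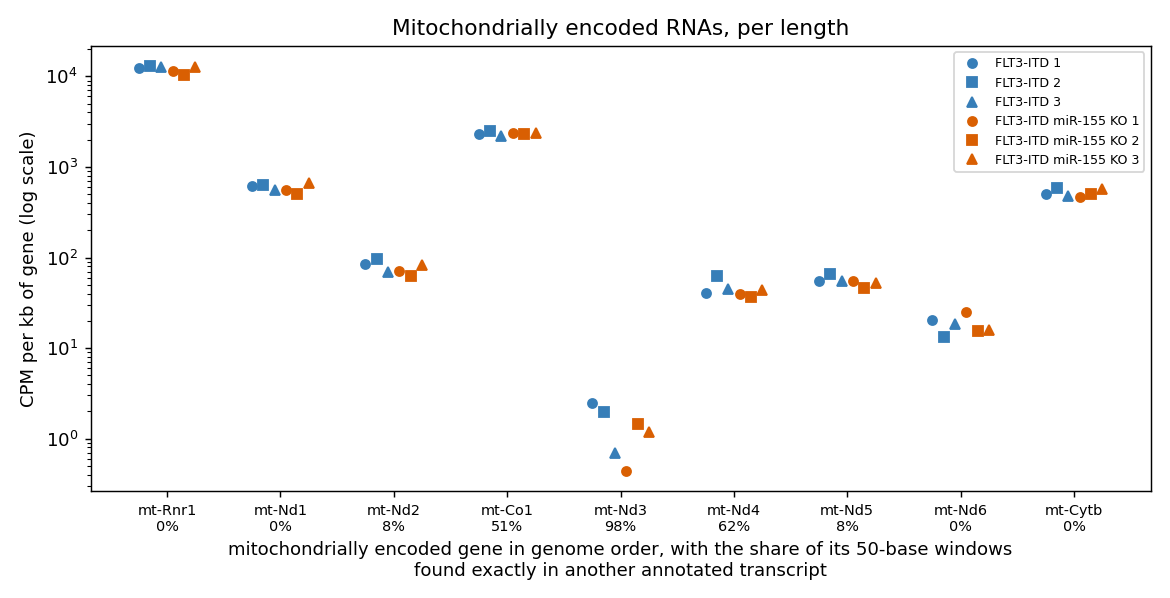
CPM per kb of gene (y axis, log scale) of mt-Rnr1 and the 8 mitochondrial mRNA genes analysed here, in each of the 6 libraries. Genes are in genome order, without those not analysed, and the percent of 50-base windows found in another transcript is under each name. The order of the genes is nearly the same in all libraries, from mt-Rnr1 down to mt-Nd3, and the colours of the 2 groups mix.

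Levels per length were lower, at the median, in nuclear subunit genes that share most of their sequence with other genes. The 12 genes with at least 50% of their coding 50-base windows in another gene's transcript had a median of 15.4 FPKM, and 9 of the 12 were below 30 FPKM. The other 69 had a median of 52.5 FPKM, with 18 below 30 FPKM. Per kilobase of coding sequence the medians were 51.3 and 140 CPM. Atp5l, a membrane subunit of ATP synthase that shares every window with other genes, had only 3 to 10 counts per library, and Atp5g2 had 1 to 7, while Cox6c (52.7% shared) reached 414 CPM per coding kb. The part of read placement in these levels was not tested. The FPKM also depend on the gene models: the length implied by the deposited FPKM and counts was a median of 2.66 times the coding length, and over 5 times in 15 of 81 genes. For Ndufb2, an accessory subunit of complex I, it was 5628 bases for a coding sequence of 318, giving 7.37 FPKM but 130 CPM per coding kb. Ranked by FPKM, Atp5a1 (310) and Ndufa4 (283) led the nuclear genes; per coding kb, Atp5e (738 CPM), the epsilon subunit of ATP synthase, led before Atp5b (651 CPM).

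**Figure D4:**
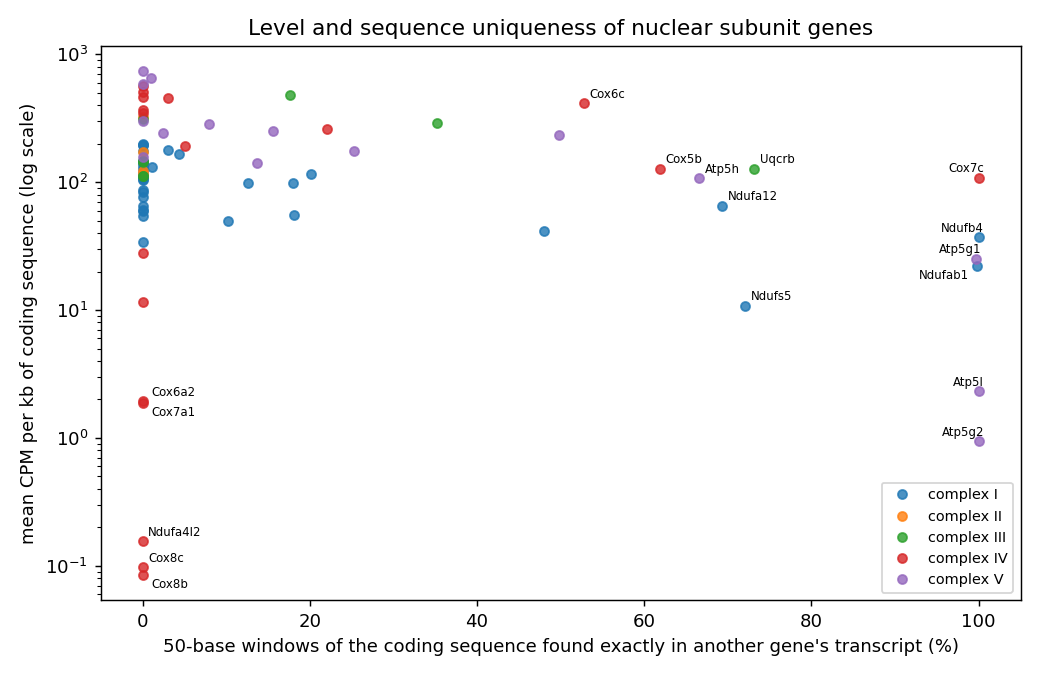
Mean CPM per kb of coding sequence (y axis, log scale) of the 81 nuclear subunit genes against the percent of their 50-base coding windows found exactly in another gene's transcript (x axis), by complex. Genes at the right edge, such as Atp5l and Atp5g2, lie low, while Cox7c and Ndufb4 share every window and lie higher; the tissue-specific forms Cox8b, Cox8c and Ndufa4l2 are low and share none.

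Nuclear subunit genes varied together between libraries of the same group. In control library 1, 62 of 74 tested subunit genes were above their own mean over the libraries, and in KO library 1, 53 of 74. Control libraries 2 and 3 had 21 and 16 above, and KO libraries 2 and 3 had 22 and 42. The median over all genes stayed within 0.01 of 0 in every library, where TMM scaling largely sets it. The median deviation of the subunit genes on the log2 scale was 0.11, -0.05 and -0.10 in controls 1, 2 and 3. It was 0.07, -0.05 and 0.01 in KO libraries 1, 2 and 3. The pattern was not particular to subunit genes. In the same order, mitochondrial ribosomal protein genes had 0.09, -0.04, -0.05, 0.04, -0.03 and 0.02. The adenine nucleotide and phosphate carriers had 0.11, -0.07, -0.08, 0.07, -0.08 and 0.06. The list of assembly factors showed less of it, with 0.03, -0.009, -0.04, 0.005, 0.02 and -0.01. The libraries numbered 1 also differed in markers of other cells, not all in 1 direction. The 9 macrophage markers found in the table summed to 583 and 435 CPM there, against 81.9 to 125 CPM in the other libraries, and the 10 erythroid markers to 81.3 and 55.4 CPM, against 10.1 to 21.7 CPM. The stem and progenitor gate markers were lower there, at 1851 and 1812 CPM against 2383 to 2586 CPM, as were the 7 megakaryocyte markers, at 46.2 and 30.4 CPM against 52.0 to 65.2 CPM. The plasma and B cell sums of the libraries numbered 1 (12175 and 4870 CPM) were the middle values of their groups, and the neutrophil sums (1022 and 510 CPM) were the highest of the controls and the lowest of KO. The part of these cells in the nuclear subunit pattern was not tested; without both libraries numbered 1 the median fold change of the nuclear subunit genes was 0.05 and again none was called. The genes furthest above the other libraries in those numbered 1 were mt-Nd6 (0.52 on the log2 scale), Ndufa1 (0.35) and Cox7b (0.31), and the furthest below were Atp5s (-0.71) and Cox6b2 (-0.62). The mitochondrial mRNA genes did not follow the nuclear ones: their median deviation was 0.01, 0.17 and -0.07 in the controls and -0.07, -0.22 and 0.003 in KO.

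**Figure D5:**
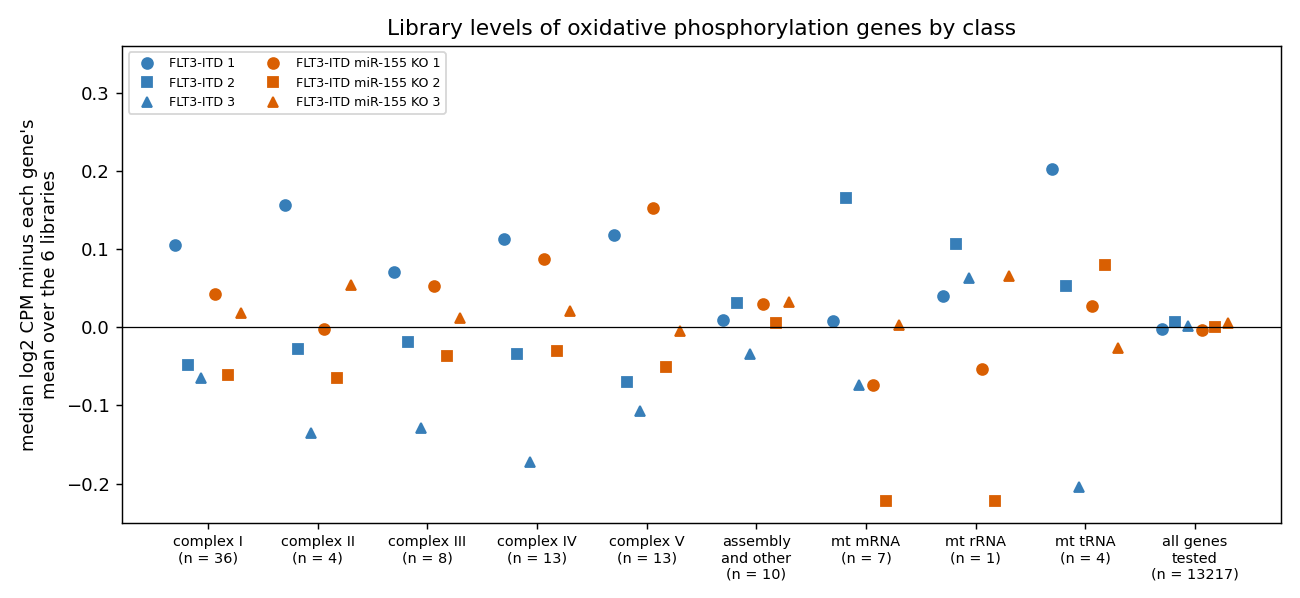
Median deviation of log2 CPM from each gene's mean over the 6 libraries (y axis) for each class (x axis, with the number of tested genes), in the control (blue) and KO (orange) libraries by replicate number. For complexes I to V control library 1 lies above control libraries 2 and 3, and the mitochondrial mRNA and rRNA are lowest in KO library 2. The median of all genes stays at 0, where TMM scaling largely sets it.

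The wider machinery around the complexes gave few differences. Its list of assembly factors overlaps the genes above, as it also holds Ndufaf6. In edgeR's test without the block, which called 0.159% of all genes, 0 genes were called in each of 9 lists: 44 assembly factors of the complexes (median log2 fold change 0.01), 20 electron carriers and coenzyme Q enzymes (-0.008), 27 genes of mitochondrial DNA transcription and replication (-0.02), 16 regulators of mitochondrial biogenesis (0.02), 26 of the tricarboxylic acid cycle and pyruvate oxidation (-0.03), 22 of glycolysis (0.02), 8 adenine nucleotide and phosphate carriers (0.02), 17 antioxidant and stress genes (-0.04) and 79 mitochondrial ribosomal proteins (0.002). At an unadjusted p under 0.05 they held 0, 0, 1, 0, 0, 1, 0, 2 and 1 genes in that order, against 3.9% of all genes; with the block the counts were 1, 2, 1, 1, 0, 5, 1, 3 and 1, against 9.35% of all genes. The largest shares with the block were 5 of 22 glycolysis genes (22.7%) and 3 of 17 antioxidant and stress genes (17.6%). In glycolysis, 13 fold changes were positive and 9 negative. Pgam1 and Gapdh had the smallest unadjusted p there without the block, and both were higher in every KO library than in every control. Their log2 fold changes were 0.45 ± 0.18 and 0.23 ± 0.11 (SE), with edgeR adjusted p of 0.504 and 0.483 with the block. Their mean levels over the libraries were 4.70 and 8.72 FPKM. Near-identical copies of this pair were not searched for, and the part of read placement in their counts was not tested. At the adjusted threshold with the block, which called 1.36% of all genes, 1 gene was called over all lists, the mitochondrial ribosomal protein gene Mrpl39. It was at 48.2, 45.6 and 40.6 CPM in the controls and 32.9, 32.0 and 30.3 CPM in KO, so every KO library was below every control. The log2 fold change was -0.50 ± 0.10 (SE), with an edgeR adjusted p of 0.228 without the block and 0.0467 with it. Mrpl39 lies on chromosome 16 (chr16:84717576-84735742, minus strand), 2.33 kb from Gm26667, the row of the miR-155 host transcript. Within the lists, Trmt10c, a subunit of mitochondrial RNase P, differed by -0.25 ± 0.10 on the log2 scale (SE; edgeR unadjusted p 0.0318). Gpx4, a lipid peroxidase, differed by -0.29 ± 0.11. Hspe1, the mitochondrial co-chaperonin, had 64.7 ± 3.60 CPM in the controls and 118 ± 53.4 CPM in KO (SD, n = 3), with overlapping groups. None of these 3 passed the adjustment with the block either.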

How the data were processed

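RNA sequencing counts of 6 libraries (3 per group, 3 pooled mice each) were used. Per the submitters' processing notes, reads were aligned with Novoalign 2.08.01 to mm10, and DESeq2 1.10.1 was used; the sources used here do not give the read counter, gene annotation, strand setting or any ribosomal RNA removal. The authors deposited, per gene, whole-number counts without normalization, FPKM values, and their log2 fold change and adjusted p-value.

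Counts were tested in edgeR 4.0.16 (R 4.3.3; TMM scaling, filterByExpr with a minimum count of 10, quasi-likelihood F test, Benjamini-Hochberg adjustment over all 13217 genes, threshold 0.05), control against KO. CPM use TMM-scaled library sizes, shares and FPKM do not. Total counts of 6843129 to 9443615 limit the precision of genes with few counts. Alternatives were DESeq2 1.42.0, limma-voom (limma 3.58.1), other scalings and filters, a replicate block and leaving out libraries. The replicate numbers were treated as pairs because deviations of equal numbers correlated at 0.57, 0.53 and 0.22 across genes. Unequal numbers gave -0.51 to 0.13, the highest for control library 3 with KO library 2. These values come from the tested data and depend on each other, as deviations were taken from group means. The labels do not state a pairing.

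Complex membership was assigned by symbol. Genes chosen for naming were those past the threshold, the mitochondrial rRNA and mRNA genes, the complex II genes and a set of tissue-specific forms. To these came, per nuclear class, the highest FPKM and the largest differences in each direction, and the 10 tested genes with the smallest p. In each wider list the choice was the genes past the threshold and the 2 with the smallest p. Not all of these are in the text: Ndufa2 and Ndufa6 are left out. Of the wider lists only a part is given, picked with the values known. Other genes in the text (such as Ndufa8, Atp5b, Atp5e, Atp5l, Cox6c and Ndufb2) were named after their values were seen. Genes and lists were chosen with earlier results of these data known. The motif forms were shortened after a first search of the promoters. Copies were found with BLAST 2.17.0 and exact 50-base windows in GENCODE M21 transcripts (GRCm38, the assembly of mm10). The test was tried on simulated data.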

Additional observations from a re-analysis of the deposited data

How the results depend on the processing

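None of the 96 tested genes was called under any of 17 alternatives (smallest adjusted p 0.444). The mean difference of the mitochondrial mRNA share between equal numbers equals the difference of the group means (-0.0058 percentage points) by arithmetic, so pairing could not change it. The replicate block gave a count of 0, and the median log2 fold change was 0.02 for nuclear subunit genes and -0.08 for mitochondrial mRNA genes. Leaving out each replicate in turn moved these medians between -0.02 and 0.09 (nuclear) and between -0.19 and -0.0165 (mitochondrial), the lowest of the latter without KO library 3, and the share difference between -0.019 and 0.0153 percentage points; the cause was not tested. The nuclear median was negative without control library 3. Of the 35 tested oxidative phosphorylation genes chosen for naming, 19 kept their sign under every alternative and 16 changed it at least once. Over all genes, 2 higher and 19 lower calls became 42 and 138 with the replicate block, 131 calls in all in DESeq2, and 4 and 93 with no filter on low counts. They fell to 0 without control library 1 or without control library 3, and to 0 and 9 without control library 2 and 0 and 8 without KO library 2. A filter of 1 CPM in 3 libraries kept 13594 genes and is not stricter. Intervals reached past 1.5-fold for 14 of the 96 genes, among them Ndufs5 and mt-Nd6 with few counts, and also mt-Nd4 and Uqcrq with more; how much of this is depth was not tested.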
